A study of Mus musculus with 9 samples.

Results

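The chemokines and secreted inflammatory cytokines of mouse embryonic fibroblasts (MEFs) were followed on 9 arrays. The set held every gene named Ccl or Cxcl with a plain number, together with Cx3cl1, Il1a, Il1b, Il6, Il11, Il33, Lif, Tnf, Csf1, Csf2 and Csf3. This gave 41 of the 18194 genes on the arrays that had a probe-set matched to a single symbol. They comprised 17 Ccl and 13 Cxcl chemokines, Cx3cl1 and 10 cytokines, and were read by 63 probe-sets. A further probe-set that matches several genes also holds Ccl19 and was left out, so Ccl19 is not described. The rule names genes and uses no measured value, but it was written with earlier results of these data known.

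The 3 groups were Tgif1 -/- MEFs at passage 3 (null), wild type MEFs at passage 5 (P5) and wild type MEFs at passage 3 (P3), with 3 independent cultures and arrays in each. All were primary MEFs from embryos of day 13.5, of strain C57BL/6J x 129Sv/J, untreated, and grown on a 3T3 schedule in which cells are counted and re-plated at a fixed density. The null embryos lacked Tgif1 in every cell, and MEFs are a mixed primary culture that can carry other cell types of the embryo. Whether the cultures of a group came from different embryos, and whether the P5 cultures had been grown on from the P3 cultures, was not stated. The question set for the arrays was whether null cells at passage 3 resemble wild type cells at a later passage.

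Chemokines are small secreted proteins that draw white blood cells along a gradient through G protein-coupled receptors. The family is named after the spacing of its first cysteines (CC, CXC and CX3C). Cytokines of the interleukin-6, interleukin-1 and colony-stimulating families act on neighbouring cells through receptors that signal to JAK-STAT and NF-kappaB proteins. Fibroblasts make many of them, and cultured fibroblasts that stop dividing are known for secreting interleukin-6, Cxcl1 and related factors, a secretion whose genes are driven largely by NF-kappaB and C/EBPbeta. Tgif1 is a homeodomain protein that represses transcription, among others of genes that answer to TGFbeta.

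The targeted gene was checked first. Tgif1 had log2 signals of 2.48, 3.21 and 2.5 on the null arrays, against 10.06, 10.07 and 10.18 on the P5 arrays and 9.82, 9.95 and 9.72 on the P3 arrays. The signal was low on the null arrays alone. The place of these probes within or outside the deleted part was not checked. All 11 measured fibroblast markers had a mean signal above 4, and the mean over them was 11.49 to 11.66 on the null arrays, 11.98 to 12.08 on the P5 arrays and 11.60 to 11.74 on the P3 arrays. The lowest value on every array was 2.229, so a gene near it cannot show a decrease. Null replicate 1 stood apart for several members, low for Cxcl1, Cxcl2 and Cxcl5 and high for Ccl20, Ccl17 and Cxcl10, and results that rest on it are given with and without it.

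The bases upstream of 4 members are shown because they carry the letters that NF-kappaB proteins bind, and because 3 of these genes, Il6, Cxcl1 and Cxcl3, differed between null and P5 while Cxcl2 did not pass any test. Windows of 250 bases before the start of transcription were read from RefSeq (GRCm38.p6) and found for 30 of the 41 genes, in 33 windows. The windows lie on the plus strand at chr5:30012864-30013113 (Il6), chr5:90890995-90891244 (Cxcl1), chr5:90785851-90786100 (Cxcl3) and chr5:90903649-90903898 (Cxcl2), and capitals mark the letters of the NF-kappaB motif and, in Il6 only, of a C/EBP motif on the minus strand.
Il6: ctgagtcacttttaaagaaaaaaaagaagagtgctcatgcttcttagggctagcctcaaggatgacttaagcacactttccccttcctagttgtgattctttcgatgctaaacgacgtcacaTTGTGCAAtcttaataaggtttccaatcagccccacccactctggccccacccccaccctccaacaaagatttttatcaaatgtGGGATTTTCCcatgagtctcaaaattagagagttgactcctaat
Cxcl1: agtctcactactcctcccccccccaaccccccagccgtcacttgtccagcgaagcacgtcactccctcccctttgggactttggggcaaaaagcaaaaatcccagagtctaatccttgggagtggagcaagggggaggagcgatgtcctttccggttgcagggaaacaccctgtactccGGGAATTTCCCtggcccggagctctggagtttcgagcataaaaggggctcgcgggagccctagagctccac
Cxcl3: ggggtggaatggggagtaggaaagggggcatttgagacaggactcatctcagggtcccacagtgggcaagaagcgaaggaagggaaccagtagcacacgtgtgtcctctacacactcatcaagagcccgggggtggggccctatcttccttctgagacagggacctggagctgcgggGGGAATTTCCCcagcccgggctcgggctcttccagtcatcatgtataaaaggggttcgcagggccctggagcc
Cxcl2: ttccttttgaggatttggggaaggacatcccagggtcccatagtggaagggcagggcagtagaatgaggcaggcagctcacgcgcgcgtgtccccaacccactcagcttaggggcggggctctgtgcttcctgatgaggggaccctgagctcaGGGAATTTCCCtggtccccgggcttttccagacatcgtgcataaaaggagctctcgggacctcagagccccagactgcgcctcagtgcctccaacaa

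The NF-kappaB motif, searched on both strands, was in 10 of the 33 windows (30.3%), against 7.25% of all 32851 windows of that length. In Il6 it lay 44 to 35 bases before the start. Cxcl1, Cxcl3 and Cxcl2 held the same run of 11 letters, read on both strands, with its first letter 71, 73 and 97 bases before the start. The other windows with it were those of Csf1, which passed in comparisons with P5, and of Lif, Ccl1, Ccl9, Ccl20 and Cxcl10, which passed in none. The windows of Cxcl12, Cxcl14 and Ccl25, which also passed in comparisons with P5, did not hold it. Cxcl5, Ccl2 and Ccl7 were among the genes without a window and were not searched. The C/EBP motif (TTGCNNAA) was in 4 member windows (12.1%), against 9.56% of all windows, with the match of Il6 lying 128 to 121 bases before the start. The AP-1 motif (TGANTCA) was in 6 (18.2%), against 6.75% of all windows. The letters CTGTCA, which Tgif1 binds, were in 3 member windows (9.09%) and 15.9% of all windows. A run of letters is a description of the sequence and not a measured site.

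Of the 41 genes, 16 had a mean signal above 4 in at least 1 group, 12 of them above 6, and 25 had no group mean above 4. For 17 genes all 9 values lay within 0.1 of the lowest value. The plot of levels by role shows where the signal was. Neutrophil-attracting CXC chemokines, Cxcl12, Cxcl14, Cx3cl1, Ccl2, Ccl7, the interleukin-6 family and Csf1 were measurable, whereas the interferon-induced CXC chemokines, Tnf, the interleukin-1 genes and most CC chemokines stayed near the lowest value. Signals of different probe-sets are not on a common scale, so genes were compared with themselves only.

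**Figure D1:**
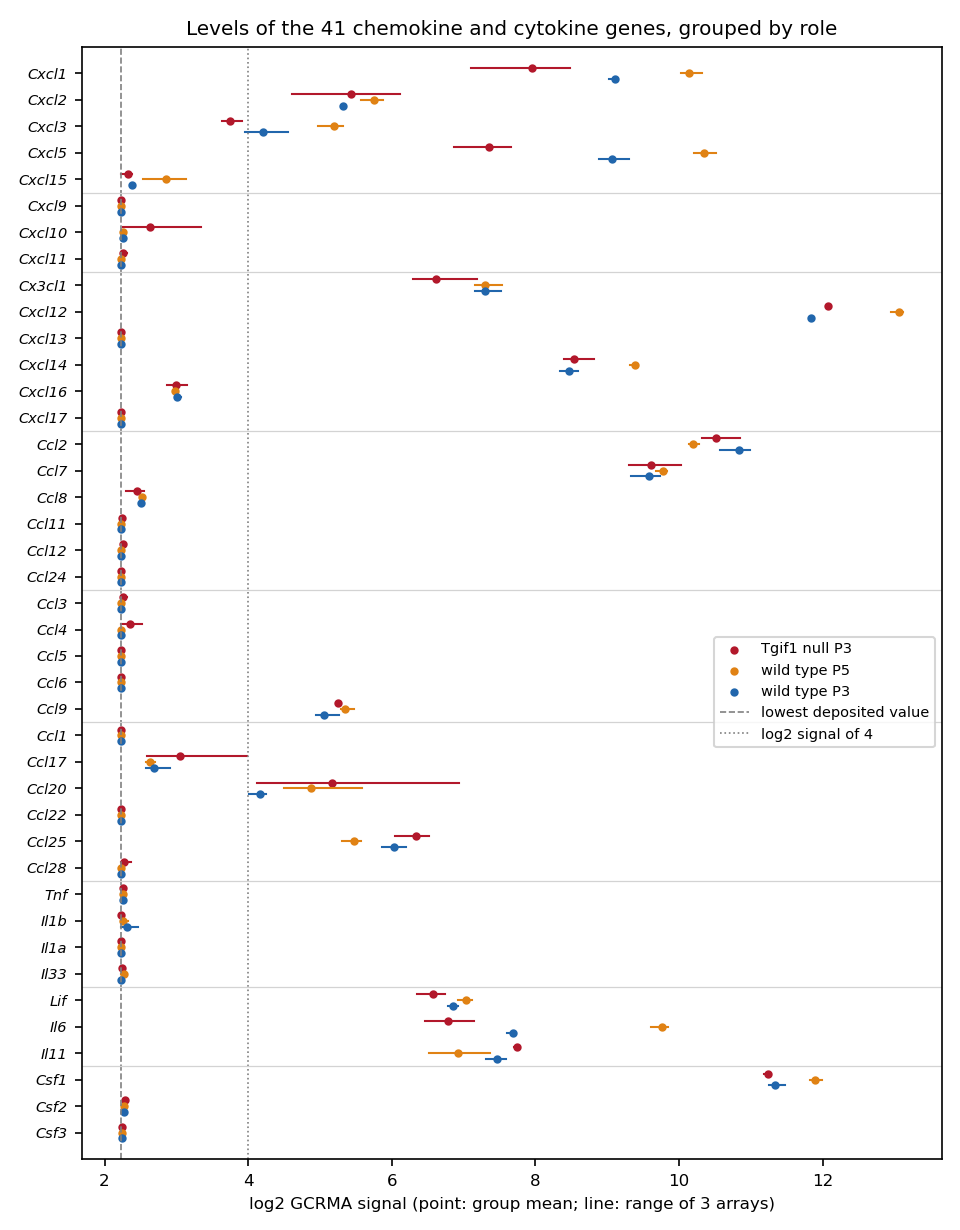
Log2 GCRMA signal (horizontal axis) of the 41 genes (vertical axis, grouped by role between grey lines) in null, P5 and P3 cultures. Points are means of 3 arrays, lines their range, the dashed line the lowest deposited value and the dotted line a signal of 4, which 16 genes exceeded in at least 1 group mean.

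A gene is said to have risen or fallen where limma's moderated test of a comparison, fitted over all probe-sets and adjusted by the Benjamini-Hochberg method, gave an adjusted p under 0.05 for its brightest probe-set. Between P5 and P3, 6 of the 41 genes rose (Il6, Cxcl5, Cxcl3, Cxcl12, Cxcl14 and Csf1, 14.6%) and 0 fell, while 6.13% of all genes rose and 7.11% fell. The count of 0 was 2 (Ccl2 and Ccl25) among probe-sets above 4 on at least 3 arrays and 3 (also Il11) among those above 6. Between the null and P3, 0 rose and 1 fell (Cxcl5, 2.44%), while 1.51% of all genes rose and 1.07% fell. At an unadjusted p under 0.05 there were 7 genes in this comparison (17.1%), close to the 15.2% of all genes. There were 12 (29.3%) between P5 and P3 and 12 between the null and P5, beside 26.5% and 25.7% of all genes, so at that threshold the members' shares lay near the background. Between the null and P5, 1 rose (Ccl25) and 7 fell (Il6, Cxcl1, Cxcl3, Cxcl5, Cxcl12, Cxcl14 and Csf1, 17.1%), while 6.08% of all genes rose and 5.33% fell. The comparisons share arrays, so the genes lower in the null than in P5 and those higher in P5 than in P3 rest on the same P5 arrays. Without null replicate 1 the counts were 1 between the null and P3, 8 between P5 and P3 (Cxcl1 rose and Ccl2 fell in addition) and 8 between the null and P5 (Cx3cl1 fell and Ccl25 was no longer called).

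The thresholds of the study, a p under 0.0001 and a log2 difference of at least 0.5, were applied here in 2 ways, since its methods name pair-wise comparisons but not the statistic. With a moderated F test over the 3 groups the representative probe-sets selected were those of Cxcl5 and Il6 between the null and P3 (0.94% of all genes), and of Cxcl5, Il6 and Cxcl12 between P5 and P3 (2.46% of all genes) and between the null and P5 (2.35% of all genes). With the p of each pair-wise comparison they were none between the null and P3 (0.627% of all genes), Il6 and Cxcl12 between P5 and P3 (2.82% of all genes) and Il6, Cxcl5, Cxcl12 and Csf1 between the null and P5 (2.57% of all genes). The 3 comparisons of the measurable members are set side by side in the plot of differences. The median difference over the 41 genes was 0.00 in every comparison, as was that over all genes.

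**Figure D2:**
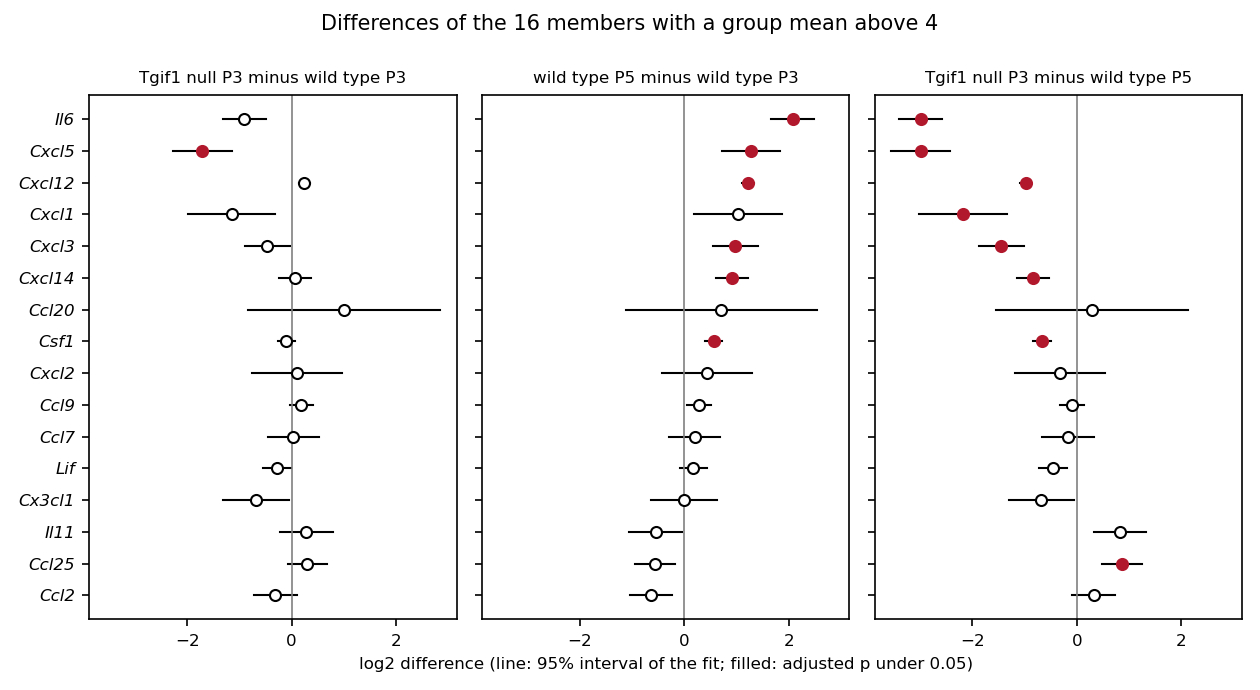
Log2 differences (horizontal axis) of the 16 members with a group mean above 4 (vertical axis), for null minus P3, P5 minus P3 and null minus P5. Points are fitted differences, lines their 95% intervals, and filled points passed at an adjusted p under 0.05, 1 in the left panel, 6 in the middle and 8 on the right.

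Il6 encodes interleukin-6, which signals through the shared receptor subunit gp130 and is the best known of the cytokines secreted by arrested fibroblasts. Its log2 signals were 6.47, 6.72 and 7.14 in the null, against 9.85, 9.83 and 9.61 in P5 and 7.73, 7.61 and 7.72 in P3. All P5 arrays lay above all P3 arrays, and all null arrays lay below both. Il6 rose in P5 relative to P3 by 2.08 (SE 0.17, 4.23-fold, limma adjusted p = 0.00144) and fell in the null relative to P5 by 2.99 (SE 0.17, 7.94-fold, adjusted p = 0.000581). Between the null and P3 the difference was -0.91 (SE 0.17, 95% interval -1.32 to -0.50), which did not pass (adjusted p = 0.0671). It passed without null replicate 3 (-1.09, adjusted p = 0.0253) and with no other array left out. With 3 arrays a group an exact permutation test of a single gene cannot go below p = 0.1, so p-values of the fit are given throughout. The fit borrowed little across genes (prior degrees of freedom 0.345, residual 6). Its small p-values therefore rest mainly on the spread of each gene's own arrays and on the assumption of normal errors. On bulk RNA, fewer cells that make a transcript and less of it per cell cannot be told apart.

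The other members of the interleukin-6 family moved less. Il11, a cytokine of the same family that fibroblasts make in answer to TGFbeta, had 7.78, 7.76 and 7.71 in the null, 6.87, 6.52 and 7.37 in P5 and 7.60, 7.31 and 7.49 in P3. The null arrays lay above every other array, yet no comparison passed (null minus P5 0.83, SE 0.21, adjusted p = 0.0732). Without P5 replicate 3, its highest P5 array, null minus P5 was 1.05 (adjusted p = 0.0149) and P5 minus P3 was -0.77 (adjusted p = 0.032). Lif, the leukaemia inhibitory factor, had 6.75, 6.35 and 6.64 in the null, 7.12, 6.92 and 7.05 in P5 and 6.92, 6.85 and 6.79 in P3. Its null arrays lay below all wild type arrays, and the difference from P5 was -0.45 (SE 0.11, adjusted p = 0.0661).

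Cxcl1, Cxcl2, Cxcl3, Cxcl5 and Cxcl15 belong to the CXC chemokines that carry a glutamate-leucine-arginine motif and attract neutrophils, several of them through Cxcr2. Cxcl5 had log2 signals of 6.86, 7.66 and 7.54 in the null, 10.52, 10.20 and 10.32 in P5 and 9.01, 9.30 and 8.89 in P3. The groups did not overlap, with the null lowest and P5 highest. It fell in the null by 1.71 relative to P3 (SE 0.23, 3.28-fold, adjusted p = 0.027) and by 2.99 relative to P5 (SE 0.23, 7.95-fold, adjusted p = 0.00149), and rose in P5 by 1.28 relative to P3 (SE 0.23, 2.43-fold, adjusted p = 0.0226). Without null replicate 1 null minus P3 was -1.47 (limma adjusted p = 0.0258) and null minus P5 was -2.74 (limma adjusted p = 0.00186). The null to P3 call was lost without any 1 of the arrays other than null replicate 1. The differences were then -1.59 to -1.87, with adjusted p-values of 0.0530 to 0.10. The P5 arrays enter the null to P3 comparison only through the shared estimate of the spread. The P5 to P3 call was lost without P3 replicate 1 or 3 or any P5 replicate (adjusted p-values of 0.0655 to 0.0860).

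Cxcl1, the chemokine known as KC, had 7.10, 8.27 and 8.48 in the null, 10.32, 10.08 and 10.03 in P5 and 9.15, 9.02 and 9.13 in P3 on its brightest probe-set. The groups again did not overlap, but null replicate 1 lay more than 1 log2 unit below the other null arrays. Cxcl1 fell in the null relative to P5 by 2.19 (SE 0.35, 4.56-fold, adjusted p = 0.0162), a call lost without P5 replicate 1 (adjusted p = 0.0671) or P5 replicate 2 (adjusted p = 0.0618). The differences of null minus P3 (-1.15, SE 0.35, adjusted p = 0.26) and P5 minus P3 (1.04, SE 0.35, adjusted p = 0.159) did not pass. Without null replicate 1 they were -0.73 (adjusted p = 0.0566) and 1.04 (adjusted p = 0.00488).

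The other probe-sets of Cxcl1 ran the same way with less spread. A dim probe-set, whose name ends in x_at, had 3.13, 3.24 and 3.42 in the null, 4.77, 4.84 and 4.67 in P5 and 3.91 on each P3 array, and passed in all 3 comparisons (-0.64, adjusted p = 0.0184, 0.86, adjusted p = 0.00193, and -1.50, adjusted p = 0.000398). The 3 P3 values of this dim probe-set were identical (SD 0), which lowers the spread behind its p-values. Its SE was 0.08, against 0.35 on the brightest probe-set, so its calls add little to those of the brightest. The third, whose name ends in s_at, passed only between the null and P5 (-2.12, adjusted p = 0.00569). Such endings mark probe-sets with probes that can match other transcripts, so part of their signal may come from other genes. Which transcripts these probes match was not checked.

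Cxcl3 had 3.69, 3.91 and 3.63 in the null, 5.32, 5.27 and 4.98 in P5 and 4.12, 3.96 and 4.55 in P3. It rose in P5 relative to P3 by 0.98 (SE 0.18, 1.97-fold, adjusted p = 0.0225) and fell in the null relative to P5 by 1.45 (SE 0.18, 2.73-fold, adjusted p = 0.00654), with the null close to background. The P5 to P3 call was lost without P3 replicate 1 (adjusted p = 0.0880), P5 replicate 1 (adjusted p = 0.0857) or P5 replicate 2 (adjusted p = 0.0879). Cxcl2, which shares the 11-letter run shown above, did not pass, with 4.61, 5.57 and 6.11 in the null, 5.88, 5.57 and 5.83 in P5 and 5.35, 5.34 and 5.30 in P3. Its 95% interval for P5 minus P3 ran from -0.43 to 1.30, wide enough to hold the difference of Cxcl3. Null minus P3 was 0.10 for Cxcl2 with all arrays and 0.51 without null replicate 1 (adjusted p = 0.375). Cxcl15, a chemokine described in lung, did not exceed 3.14 on any array and did not pass. Il6 and these 5 chemokines all lie on mouse chromosome 5, with the chemokines next to each other among the members in the order Cxcl5, Cxcl3, Cxcl15, Cxcl1 and Cxcl2.

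Of the remaining CXC chemokines, Cxcl12 and Cxcl14 were higher in P5 than in the other groups. Cxcl12, the stromal factor that holds blood stem cells and guides cells through Cxcr4, had 12.05, 12.09 and 12.09 in the null, 12.95, 13.12 and 13.11 in P5 and 11.83, 11.84 and 11.84 in P3. It rose in P5 relative to P3 by 1.22 (SE 0.04, 2.34-fold, adjusted p = 0.00015) and fell in the null relative to P5 by 0.98 (SE 0.04, 1.97-fold, adjusted p = 0.000276). Every null array lay above every P3 array by a small amount, and this difference of 0.24 (SE 0.04, adjusted p = 0.0642) did not pass, except without P5 replicate 1, with median centring and with the 6 arrays alone. A dimmer probe-set of Cxcl12 gave the same calls with smaller differences (0.44, adjusted p = 0.00582, and -0.33, adjusted p = 0.0173).

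Cxcl14, a chemokine of resting skin and other epithelia, had 8.81, 8.41 and 8.39 in the null, 9.32, 9.43 and 9.41 in P5 and 8.60, 8.34 and 8.49 in P3. Null and P3 overlapped and P5 stood above both, by 0.91 over P3 (SE 0.13, 1.88-fold, adjusted p = 0.00872), while null minus P5 was -0.85 (SE 0.13, adjusted p = 0.0127). Without P5 replicate 2 the comparison of null and P5 gave an adjusted p of 0.0562. A second probe-set of Cxcl14 gave larger differences, 1.72 for P5 minus P3 (adjusted p = 0.0139) and -1.36 for null minus P5 (adjusted p = 0.0349). Cx3cl1, or fractalkine, which is made on the cell surface and shed, had 7.18, 6.37 and 6.29 in the null, 7.17, 7.19 and 7.53 in P5 and 7.53, 7.17 and 7.21 in P3. Null replicates 2 and 3 lay below all wild type arrays and null replicate 1 among them, so no comparison passed (null minus P5 -0.68, SE 0.26, adjusted p = 0.241). Without null replicate 1 that difference was -0.96 (adjusted p = 0.0337). Cxcl16 stayed near 3 in all groups, and Cxcl13 and Cxcl17 were at the lowest value on every array.

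**Figure D3:**
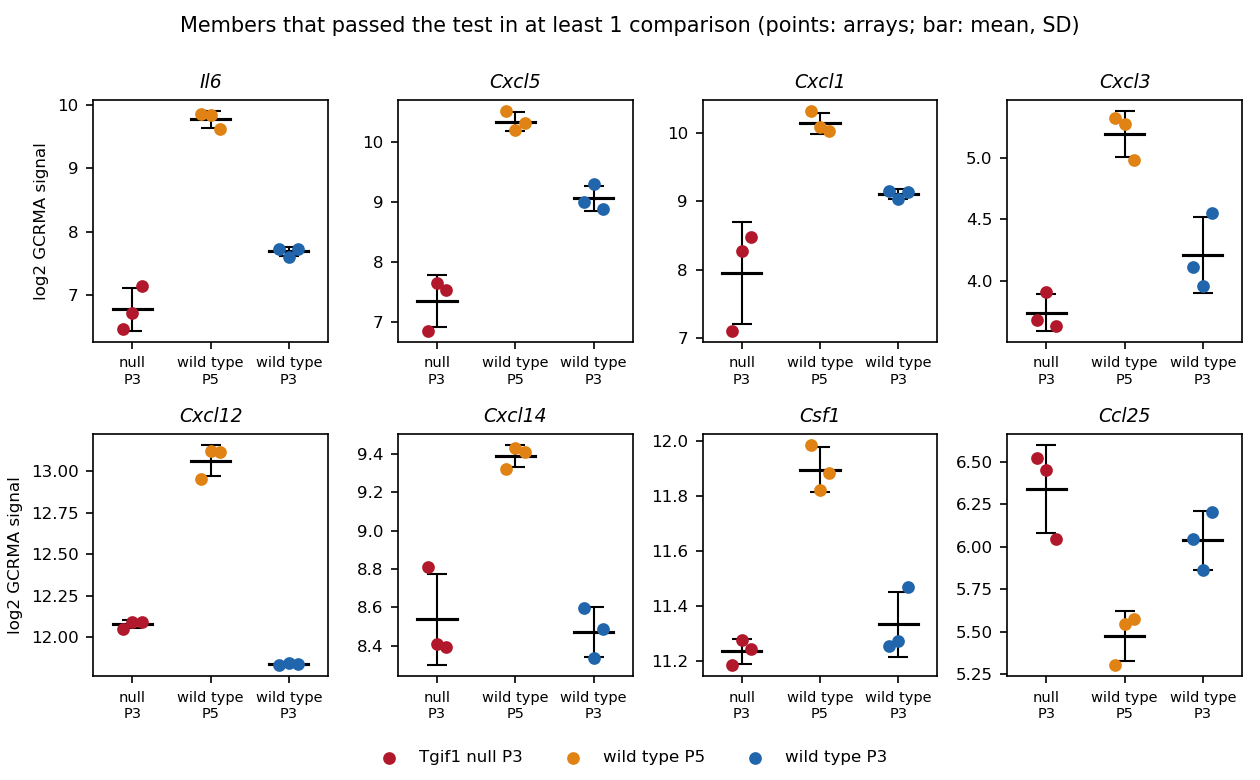
Log2 GCRMA signal (vertical axis, a scale of its own in each panel) of the 8 members that passed in at least 1 comparison, in null, P5 and P3 cultures. Points are arrays and bars the mean with its SD (n = 3). P5 stood highest for 7 of the genes and lowest for Ccl25.

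Csf1, the growth and survival factor of macrophages, had 11.18, 11.28 and 11.24 in the null, 11.99, 11.82 and 11.88 in P5 and 11.25, 11.27 and 11.47 in P3. It rose in P5 relative to P3 by 0.56 (SE 0.07, 1.48-fold, adjusted p = 0.00581) and fell in the null relative to P5 by 0.66 (SE 0.07, 1.58-fold, adjusted p = 0.00375). All 4 probe-sets of Csf1 fell between the null and P5, by 0.66 to 1.28, and 3 of them rose between P5 and P3. The dimmest missed the threshold there (0.62, adjusted p = 0.051). Null minus P3 was -0.10 on the brightest probe-set and -0.66 on the dimmest, with no call on any of the 4. With the mean of all its probe-sets Csf1 was called in this comparison (-0.37, adjusted p = 0.0376). Csf2 and Csf3, which direct granulocyte and macrophage formation, were near the lowest value throughout.

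Ccl2 and Ccl7 attract monocytes through Ccr2 and related receptors. Ccl2 had 10.85, 10.38 and 10.32 in the null, 10.28, 10.14 and 10.17 in P5 and 10.99, 10.57 and 10.92 in P3. P5 was the lowest group and did not overlap with P3, unlike Il6 and the neutrophil chemokines, but the difference of -0.64 (SE 0.17, 95% interval -1.05 to -0.22) did not pass (adjusted p = 0.0803). It passed without null replicate 1 (adjusted p = 0.0331). Ccl7 had 10.03, 9.50 and 9.30 in the null, 9.82, 9.83 and 9.68 in P5 and 9.68, 9.32 and 9.73 in P3, and all groups overlapped. The eosinophil chemokines Ccl11 and Ccl24, and Ccl8 and Ccl12, were near the lowest value.

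Ccl25, which draws T cells to the thymus and gut through Ccr9, was the only member that rose in the null relative to P5. It had 6.52, 6.45 and 6.04 in the null, 5.30, 5.55 and 5.58 in P5 and 6.04, 5.86 and 6.20 in P3. P5 lay below all other arrays, and null minus P5 was 0.86 (SE 0.16, 1.82-fold, adjusted p = 0.0254). This call was lost without null replicate 1 or 2, P3 replicate 1 or any P5 replicate. The differences were then 0.77 to 0.91, with adjusted p-values of 0.0587 to 0.0911. A second probe-set of Ccl25 did not exceed 2.73 on any array, and its null minus P5 of -0.05 did not pass. Ccl20, a ligand of Ccr6, had 6.93 on null replicate 1 against 4.12 and 4.45 on the other null arrays, 4.54, 4.49 and 5.58 in P5 and 4.21, 4.02 and 4.25 in P3, and did not pass. Null minus P3 was 1.01 for Ccl20 with all arrays and 0.13 without null replicate 1. Ccl9 ranged from 4.94 to 5.47 with no call.

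The remaining CC chemokines, Ccl1, Ccl3, Ccl4, Ccl5, Ccl6, Ccl17, Ccl22 and Ccl28, had no group mean above 4, nor had Cxcl9, Cxcl10 and Cxcl11, which interferons induce and which call T cells through Cxcr3. Null replicate 1 was the exception among arrays, with 3.98 for Ccl17 and 3.35 for Cxcl10, where no other array exceeded 2.91 and 2.28. Without it null minus P3 was -0.10 for Ccl17 and 0.01 for Cxcl10, against 0.36 and 0.37 with all arrays. Tnf, Il1a, Il1b and Il33, the alarm cytokines that switch on NF-kappaB in neighbouring cells, did not exceed 2.47 on any array. None of these genes passed, and at this signal a decrease or a small rise could not be seen.

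Receptors of the members were looked at next. For these and the later lists, 6.13% of all genes rose and 7.11% fell in P5 relative to P3. The shares were 6.08% and 5.33% for the null relative to P5, and 1.51% and 1.07% for the null relative to P3. No list was tested against these shares. Of 20 measured chemokine receptors, 3 had a mean signal above 4, and 1 rose in P5 relative to P3 (Cxcr6, the receptor of Cxcl16, 1.41, SE 0.28, adjusted p = 0.0317). That call was lost without 7 of the 9 arrays, those other than P3 replicate 2 and P5 replicate 1. Cxcr2 and Cxcr4, through which several neutrophil chemokines and Cxcl12 act, were at the lowest value on all arrays. None of the 20 passed in the other comparisons. Of 12 cytokine receptor genes, 3 rose in P5 relative to P3, 0 fell, and the median difference was 0.15. They were Osmr (0.65, SE 0.10, adjusted p = 0.0135), Il6st (0.53, SE 0.09, adjusted p = 0.0145), which encodes the gp130 subunit of the interleukin-6 family, and Tnfrsf1a (0.21, SE 0.04, adjusted p = 0.0288), a receptor of Tnf. None of the 3 passed without P3 replicate 1 or without P3 replicate 3, and 1 passed without P5 replicate 1 and without P5 replicate 2. Between the null and P5, Osmr (-0.58, adjusted p = 0.023) and Il6st (-0.55, adjusted p = 0.0149) fell and Csf1r, the receptor of Csf1, rose (1.66, SE 0.35, adjusted p = 0.0417). Csf1r is also 1 of the macrophage markers described further on, 9 of which rose in the same comparison. The count of 3 there was 0 without P5 replicate 1, and 1 without null replicate 2, P3 replicate 1, P5 replicate 2 or P5 replicate 3.

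Genes that end cytokine signals were read next. Of 16 decoys and feedback inhibitors, 6 rose and 1 fell in P5 relative to P3, 1 rose and 5 fell in the null relative to P5, and 0 passed between the null and P3. Leaving out single arrays, 5 to 7 rose between P5 and P3, and the 1 that fell, Tnfaip3, was not called without P3 replicate 1 or 3 or any P5 replicate. The medians of the list were 0.01 for P5 minus P3, -0.09 for null minus P5 and 0.00 for null minus P3, so the calls rest on part of its genes. Socs3, which interleukin-6 signals induce and which blocks gp130, had 9.04, 9.16 and 9.14 in the null, 10.34, 10.62 and 10.24 in P5 and 9.19, 9.20 and 9.18 in P3. P5 stood above both other groups, which lay close together (P5 minus P3 1.21, SE 0.10, 2.31-fold, adjusted p = 0.00128). Zfp36, a protein that speeds the decay of cytokine mRNAs, rose by 1.61 (SE 0.15, adjusted p = 0.00216), and Dusp1, a phosphatase of MAP kinases, by 1.23 (SE 0.11, adjusted p = 0.00216). Nfkbia, the inhibitor of NF-kappaB that NF-kappaB itself induces, rose by 0.56 (SE 0.06, adjusted p = 0.00424).

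Il1rn, the antagonist of the interleukin-1 receptor, had 4.25, 3.43 and 3.82 in the null, 7.25, 7.68 and 6.90 in P5 and 4.72, 5.23 and 4.33 in P3. It rose in P5 relative to P3 by 2.52 (SE 0.33, 5.73-fold, adjusted p = 0.00729) and fell in the null relative to P5 by 3.45 (SE 0.33, 10.9-fold, adjusted p = 0.00278). Tnfaip3, the A20 protein that also restrains NF-kappaB, ran the other way, with 8.19, 8.04 and 8.25 in the null, 6.84, 7.0 and 6.69 in P5 and 7.75, 7.33 and 7.47 in P3. The groups did not overlap, and Tnfaip3 fell in P5 relative to P3 (-0.68, SE 0.13, adjusted p = 0.0271) and rose in the null relative to P5 (1.32, SE 0.13, 2.5-fold, adjusted p = 0.00302). Nfkbia and Tnfaip3, which both restrain NF-kappaB, thus moved in opposite directions between P5 and P3. The activity of NF-kappaB was not tested.

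**Figure D4:**
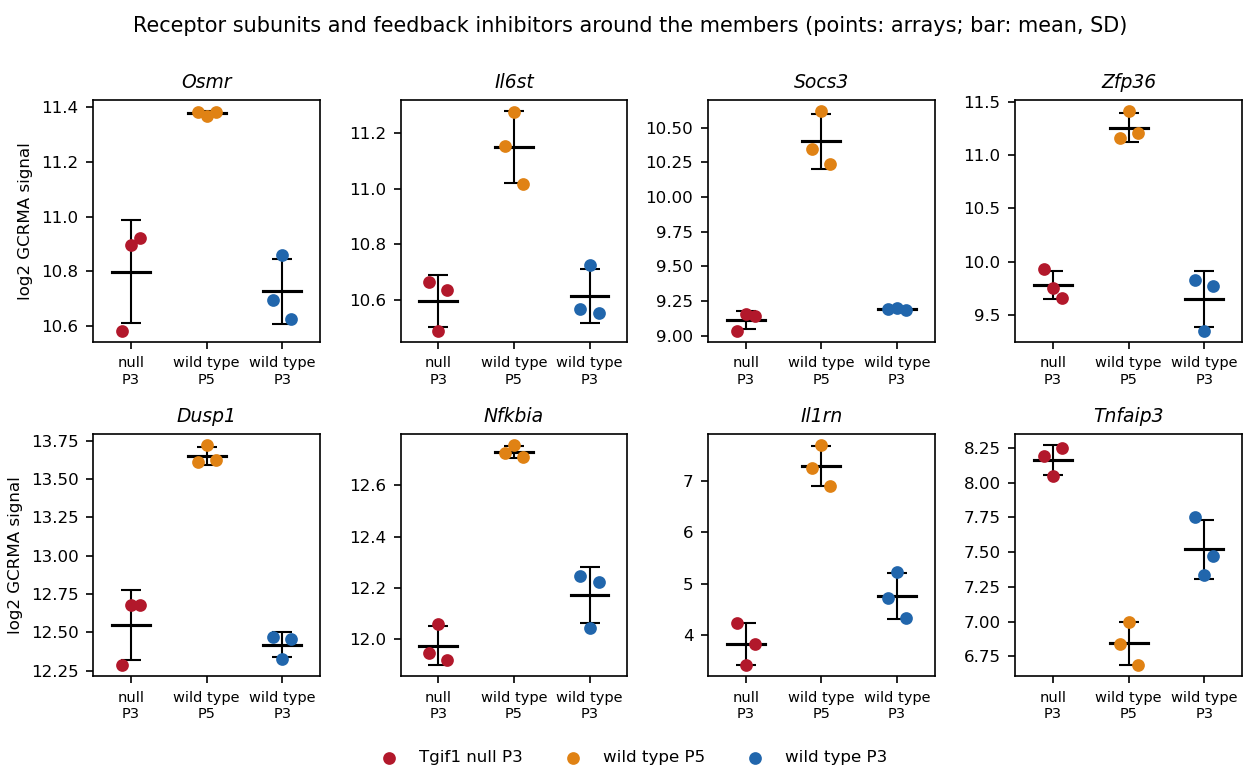
Log2 GCRMA signal (vertical axis, a scale of its own in each panel) of 2 receptor subunits and 6 feedback inhibitors in null, P5 and P3 cultures. Points are arrays and bars the mean with its SD (n = 3). P5 stood above both other groups in every panel but that of Tnfaip3, where it was lowest.

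Among 22 measured NF-kappaB, C/EBP and JAK-STAT regulators, 6 rose and 1 fell in P5 relative to P3 (median 0.12), 1 rose and 5 fell in the null relative to P5 (median -0.14), and 0 passed between the null and P3 (median -0.02). Ikbkg, the scaffold of the kinase that releases NF-kappaB, rose in P5 relative to P3 by 0.60 (SE 0.08, adjusted p = 0.00622), Jak1, a kinase bound to gp130, by 0.60 (SE 0.08, adjusted p = 0.00695), and Cebpd, a C/EBP factor, by 0.79 (SE 0.13, adjusted p = 0.0143). These counts were sensitive to single arrays. Only 2 rose between P5 and P3 without P3 replicate 1, P5 replicate 1 or P5 replicate 2, and only 1 fell between the null and P5 without null replicate 2 or any P5 replicate.

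Of 28 interferon response genes, 8 had a mean signal above 4. In P5 relative to P3, 3 rose and 0 fell, beside 6.13% and 7.11% of all genes. In the null relative to P5 1 rose and 2 fell, beside 6.08% and 5.33% of all genes. In the null relative to P3 1 rose and 0 fell, beside 1.51% and 1.07% of all genes. Ddx58, the RNA sensor RIG-I, was the gene that rose in the null relative to both P3 (0.79, SE 0.05, adjusted p = 0.00263) and P5 (0.49, SE 0.05, adjusted p = 0.00263). The 3 that rose in P5 were 0 without P3 replicate 1 or P5 replicate 2, and 1 without P3 replicate 3 or P5 replicate 1. The 2 that fell in the null relative to P5 were 0 without null replicate 1, null replicate 3 or P3 replicate 1. Among 40 other secreted factors of senescent fibroblasts, 8 rose and 1 fell in P5 relative to P3 (median 0.26), 4 rose and 9 fell in the null relative to P5 (median -0.16), and 1 rose (Mmp10, a matrix protease, 0.56, adjusted p = 0.0419) and 1 fell (Ang, angiogenin, -0.83, adjusted p = 0.0309) in the null relative to P3. Neither of these 2 was called without null replicate 2, null replicate 3, P3 replicate 1, P5 replicate 1 or P5 replicate 3, and 1 of them without P3 replicate 2, P3 replicate 3 or P5 replicate 2. Igfbp3, which binds insulin-like growth factors, rose in P5 relative to P3 by 1.52 (SE 0.15, 2.86-fold, adjusted p = 0.0027). The 8 that rose were 3 without P3 replicate 1 or P5 replicate 3, and 4 without P3 replicate 2, P3 replicate 3 or P5 replicate 2. The 9 that fell were 5 without null replicate 2, P3 replicate 1, P5 replicate 1 or P5 replicate 2.

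Markers of other cells were read because chemokines and cytokines can also come from white blood cells. The shares of all genes given with the receptors apply to these lists as well. Of 24 macrophage markers, 9 had a mean signal above 4. In the null relative to P3, 2 rose (Ctss, a lysosomal protease, 1.89, adjusted p = 0.00977, and Mpeg1, a pore-forming protein, 1.75, adjusted p = 0.0264), in the null relative to P5 9 rose, and in P5 relative to P3 0 passed. Without P5 replicate 1 or P5 replicate 2 the 9 were 3, and without null replicate 1 they were 7. The 2 that rose relative to P3 were 1 without P3 replicate 2, P3 replicate 3 or any P5 replicate, and 3 without null replicate 1. They were 7 of the 10 with probe-sets above 4, and 4 with median centring or the mean of all probe-sets. They were 1 with the robust prior, and 0 with the fit blocked by replicate number or the 6 arrays alone. The median difference of the list was 0.55 for null minus P3, 0.53 for null minus P5 and -0.05 for P5 minus P3. The mean signal over the list was 4.48, 3.97 and 4.01 on the null arrays, 3.31 to 3.36 on the P5 arrays and 3.41 to 3.52 on the P3 arrays. Null replicate 1, which was high for Ccl17, Ccl20 and Cxcl10, was thus also highest for macrophage markers. The 9 that rose relative to P5 were Ctss, Mpeg1, Lyz2, Tyrobp, Fcer1g, C1qa, C1qc, Mrc1 and Csf1r, and 0 fell. Of the markers not called, Itgam and Aif1 were at the lowest value and Ptprc did not exceed 2.36 on any array. Il6, Cxcl1, Cxcl3, Cxcl5, Cxcl12, Cxcl14 and Csf1 were highest in P5. The mean over the macrophage list was 3.31 to 3.36 there and 3.41 to 3.52 in P3, and 0 of its markers passed between P5 and P3. The part of macrophages in the values of these members, and of Ccl17, Ccl20 and Cxcl10, was not tested.

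Of 11 mast cell markers, 1 (Tph1, an enzyme of serotonin synthesis) rose in the null relative to P3 (2.11, adjusted p = 0.00224) and to P5 and fell in P5 relative to P3, and none had a mean signal above 4 over the 9 arrays. Of 10 endothelial markers, 2 rose in the null relative to P5 (Emcn and Flt1) and 0 passed elsewhere. Neither was called without null replicate 2, P3 replicate 1 or 3, or P5 replicate 1 or 2. Of 8 epithelial markers, Krt18, a keratin of simple epithelia, fell in P5 relative to P3 (-2.66, SE 0.14, adjusted p = 0.000411) and was higher in the null than in P5 (2.67, adjusted p = 0.000475). None of 8 lymphocyte markers passed or had a mean above 4. Of 11 fibroblast markers, 4 rose in P5 relative to P3, 5 fell in the null relative to P5 and 1 fell in the null relative to P3 (Dcn, the proteoglycan decorin, -0.73, adjusted p = 0.0317). The 4 were 2 without null replicate 1 or 3, P3 replicate 1 or any P5 replicate, the 5 were 1 without P5 replicate 2 and 2 without null replicate 2, and with single arrays left out a fibroblast marker fell in the null relative to P3 only without P3 replicate 2 or P5 replicate 2. The fibroblast list and the members that rose in P5 thus moved the same way between P5 and P3, and its part in their values was not tested.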

How the data were processed

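RNA of 9 MEF cultures (3 groups of 3) was hybridised to Affymetrix mouse arrays with 45101 probe-sets. The values the authors deposited are log2 signals from GCRMA, a method that estimates background by probe sequence, equalises the distributions of the arrays and gives 1 value for a set of probes. GCRMA and limma are named in the submitters' processing notes without versions. No further normalization was applied. Each array had 18127 to 18258 probe-sets with a signal above 4, and the small number of arrays limits the precision. The array annotation, with symbols updated by gene number to RefSeq (GRCm38.p6), gave 34958 probe-sets a single symbol, 932 several and 9211 none. A gene was represented by its brightest single-symbol probe-set. Differences near the lowest signal are compressed.

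The 3 group means were fitted to all probe-sets with limma 3.58.1 in R 4.3.3 (empirical Bayes at its defaults, prior degrees of freedom 0.345, residual 6), and each comparison was tested on the log2 scale with Benjamini-Hochberg adjustment over all probe-sets, at an adjusted p under 0.05. The tests are moderated and two-sided, with the spread among cultures as their error. Sequences were read with Python 3.11.15. The members, the gene lists and the rule for named genes were chosen with earlier results of these data known. Values on every array are given for Il6, Cxcl5, each member that passed a comparison and members with a group mean above 6. Up to 4 genes of each other list with the smallest p are named, besides further macrophage markers, called and not called. The alternatives tried were selection by a moderated F test at the study's thresholds (p under 0.0001 and a log2 difference of at least 0.5), the same with pair-wise p-values (added after seeing the data), filters on signals above 4 or 6 on at least 3 arrays, quantile normalization, a robust prior with a trend in signal, median centring, a fit blocked by replicate number, fits to only the 6 arrays compared, averaging over a gene's probe-sets, the symbols of the array annotation and each array left out in turn. Leaving out an array also lowers the residual degrees of freedom of every comparison, including those its group is not part of. A call lost in this way need not mean that the difference itself moved. The authors' supplementary lists and quantitative PCR were not analysed here.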

Additional observations from a re-analysis of the deposited data

How the results depend on the processing

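The calls of Il6 and Cxcl12 between P5 and P3 and between the null and P5, and of Cxcl5 between the null and P5, held under each alternative tried, and all other called differences kept their direction. The count between the null and P3, 1 in the report, was 2 with the F test at the study's thresholds, with probe-sets above 4 and with quantile normalization (Cxcl5 and Il6 each time). It was 3 with probe-sets above 6, with median centring and with the mean of all probe-sets, and 0 with the prior that follows the signal, with the replicate block and with the pair-wise p at the study's thresholds, a choice made after seeing the data. The count between the null and P5, 8 in the report, was 3 with the F test, 4 with the pair-wise p and 5 with the 6 arrays alone, and reached 10 with probe-sets above 4 or 6, median centring or the mean of all probe-sets. That between P5 and P3, 6 in the report, was 3 with the F test and 2 with the pair-wise p, and reached 9 with both filters on signal. Calls then ran in both directions, as 7 rose and 2 fell (Ccl2 and Ccl25) with probe-sets above 4, and 6 rose and 3 fell (Ccl2, Ccl25 and Il11) with probe-sets above 6. Leaving out single arrays gave 0 to 1, 6 to 8 and 4 to 8 calls for null and P3, null and P5, and P5 and P3. Shares of all genes called were taken only for the fit of the report and for the study's thresholds. Counts under the other alternatives, and with arrays left out, therefore have no background beside them. The cause of these shifts was not tested. Cxcl12 was the gene called between the null and P3 with the 6 arrays alone, where it rose. Uncalled differences changed sign for Ccl7 (null minus P3, -0.18 to 0.19 with single arrays left out), Cxcl14 (null minus P3, -0.0727 to 0.136) and Cx3cl1 (P5 minus P3, -0.12 to 0.11, and 0.0128 with the mean of all probe-sets). Same-numbered arrays did not deviate together (correlations of their deviations of -0.49 to 0.40), and with the replicate number as a block the counts were 0, 6 and 4. Signals near the lowest value limit what 25 of the 41 genes can show.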
